A study of Mus musculus with 6 samples.

Results

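Malt1 and 9 further genes of NF-kappaB signalling were followed on bead arrays of endothelial-enriched RNA from mouse carotid arteries. The 10 genes were Malt1, Bcl10, Traf6, Ikbkb, Rela, Relb, Nfkb1, Nfkb2, Nfkbia and Tnfaip3. They were taken by name around Malt1, which was itself selected on its detection p-values: it lay above background only on arrays described as disturbed flow. All probes that the platform annotation gives to these symbols were taken, which came to 18 of 45281 probes and 9 of the 10 genes, among 19057 genes with a probe named for them, since no probe carries the symbol Nfkb1. Of the 18 probes, 10 were above background on at least 3 of the 6 arrays and entered the test, and they stand for 6 genes. The 3 disturbed flow samples and the 3 stable flow samples all came from wild-type C57Bl/6J carotid arteries. The labels give no age, and they do not say whether a sample was 1 animal or a pool, so a p-value here reflects sample-to-sample spread that could be technical. In such bulk RNA, fewer cells of a type and less RNA per cell cannot be told apart.

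NF-kappaB is a family of dimeric transcription factors that is held in the cytoplasm by IkappaB proteins until the IKK kinase complex marks these inhibitors for destruction. Malt1 is a paracaspase, both a scaffold and a protease, that joins Bcl10 and a CARD scaffold protein into filaments. These filaments recruit the ubiquitin ligase Traf6, which leads to activation of IKK. In endothelial cells the scaffold is Card10, downstream of receptors such as that for thrombin. Active NF-kappaB raises adhesion molecules and chemokines in endothelium, and also its own brakes, among them Nfkbia and Tnfaip3.

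The deposited files disagree about which arrays are which. The sample descriptions name the scanned array of each sample, and these descriptions set the groups used here. In the deposited series matrix, each of the 6 columns had the rank order of the array with the same replicate number in the other group (rank correlation 1), against 0.345 to 0.759 with its own array. Every signed value below is disturbed flow minus stable flow by the descriptions. Exchanging the groups would turn the sign of each, and the files do not settle which naming is right. All disturbed flow arrays lay on 1 slide and all stable flow arrays on another, so the slide cannot be told apart from the flow condition. Between 19.6% and 34.7% of probes were above background on the disturbed flow arrays, and 9.74% to 35.0% on the stable flow arrays, with the lowest share on stable flow replicate 2. Of the 18 probes of the NF-kappaB genes, 12, 10 and 8 were above background on disturbed flow replicates 1, 2 and 3, and 7, 5 and 6 on stable flow replicates 1, 2 and 3. The RNA carried endothelial markers, with 9 of 10 above background on every disturbed flow array and 9, 6 and 9 on stable flow replicates 1, 2 and 3, Kdr being the 1 that was never above background.

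Malt1 was detected by 1 of its 2 probes, and only on the arrays described as disturbed flow. The signal of probe ILMN_1216818, before any correction, was 165, 149 and 90.0 on disturbed flow replicates 1, 2 and 3, and 103, 85.3 and 94.1 on stable flow replicates 1, 2 and 3. Uncorrected signals of different arrays are not on a common scale, and the third disturbed flow signal was below 2 of the stable flow ones. Detection p-values, which compare a probe with the negative control beads of its own array, were 0, 0 and 0.0150 on the disturbed flow arrays, against 0.474, 0.722 and 0.702 on the stable flow arrays. Within its own array the probe stood at the 92.1, 93.8 and 85.7 percentile of all probes on the disturbed flow arrays, and at the 30.0, 24.8 and 18.3 percentile on the stable flow arrays. These ranks restate the detection p-values on which the probe was picked, and they are given as a description.

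After background correction and quantile normalization, Malt1 had a log2 intensity of 6.20, 6.57 and 5.36 on the disturbed flow arrays, against 4.30, 4.28 and 4.26 on the stable flow arrays. Means were 6.04 ± 0.62 and 4.28 ± 0.02 (SD, n = 3 each). The small SD on the stable flow arrays is that of values near the floor of the scale. Since the probe was not above background on any stable flow array, its difference of 1.76 is no measure of size. Each stable flow array was also given the lowest normalized signal that was above background on it. The disturbed flow mean was then 1.97-fold higher, a bound that holds under this normalization only. That lowest signal was 5.88 on stable flow replicate 2, above the Malt1 value of 5.36 on disturbed flow replicate 3. The bound rests on the detection values that picked the probe and is given as a description. Without background correction the log2 difference was 0.58. No test is given for Malt1, because the gene was picked for this contrast. With a detection p under 0.01 in place of 0.05, the probe was above background on 2 disturbed flow arrays and 0 stable flow arrays.

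The other Malt1 probe did not show the pattern. Probe ILMN_2419951, listed for the same Malt1 transcript record, was above background on 0 of 6 arrays, with log2 intensities of 4.28, 4.26 and 4.33 on the disturbed flow arrays and 4.26, 4.28 and 4.40 on the stable flow arrays. These values lie at the floor in both groups, so they give neither a level nor a direction for Malt1. Over the whole array, 143 of 45281 probes, or 0.316%, were above background on all 3 disturbed flow arrays and on none of the stable flow arrays. The opposite pattern was found for 35 probes, or 0.0773%. Of the 18 NF-kappaB probes, 2 had the first pattern, namely the Malt1 probe that the choice rests on and an Ikbkb probe described below. Malt1 is abundant in lymphocytes, and markers of T lymphocytes were measured beside it. Of the 7 T lymphocyte markers with a probe, 3, 2 and 3 were above background on disturbed flow replicates 1, 2 and 3, and 2, 0 and 2 on stable flow replicates 1, 2 and 3, while Cd3e, Cd3g and Cd5 were above background on none. Their summed linear intensity was 186 to 221 on the disturbed flow arrays and 149 to 192 on the stable flow arrays. These sums, and those of the B lymphocyte markers below, include markers not above background, so background level makes up part of each. Of the 2 that were tested, Cd2, a T cell adhesion receptor, differed by 0.78 (SE 0.38). Its groups did not overlap, by a margin of only 4.624 on disturbed flow replicate 1 over 4.623 on stable flow replicate 1. Over all tested probes, groups did not overlap with disturbed flow higher for 5.68%. Cd8a, a coreceptor of cytotoxic T cells, differed by 0.20 (SE 0.49), with groups that overlapped and its highest value on stable flow replicate 1. Of 5 B lymphocyte markers with a probe, 1, 0 and 0 were above background on the disturbed flow arrays and 0, 1 and 0 on the stable flow arrays, with summed intensities of 95.7 to 108 and 101 to 197. The part of lymphocytes in the Malt1 signal was not tested.

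**Figure D1:**
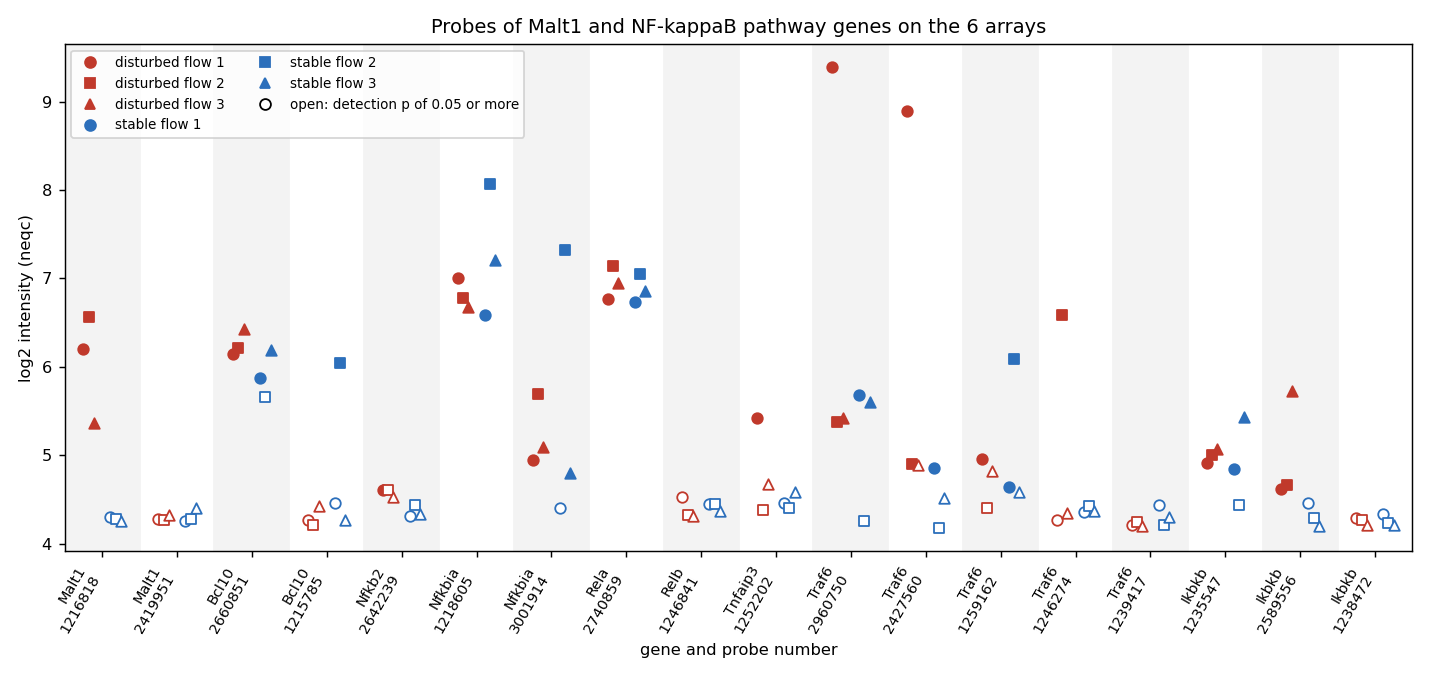
Log2 intensity after neqc (vertical axis) of all 18 probes of the NF-kappaB genes (horizontal axis), 1 point per array, with disturbed flow arrays in red on the left and stable flow arrays in blue on the right of each probe, and open symbols for a detection p of 0.05 or more. The first Malt1 probe has 3 filled red points between 5.36 and 6.57 over 3 open blue points near 4.3, the second Malt1 probe has only open points, and a Traf6 pair of probes has 1 array far above the others.

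Partners of Malt1 came next in the pathway. Bcl10, the adaptor that binds Malt1 directly, was well detected by probe ILMN_2660851, with log2 intensities of 6.14, 6.21 and 6.43 on the disturbed flow arrays, against 5.87, 5.66 and 6.19 on the stable flow arrays. The highest stable flow value lay among the disturbed flow values. Bcl10 thus differed by 0.35 (SE 0.32), its 95% interval ran from -0.41 to 1.12, and its limma adjusted p was 0.890. It stayed between 0.24 and 0.49 when single arrays were left out, and the probe was above background on 3 disturbed flow arrays and 2 stable flow arrays. A second Bcl10 probe, ILMN_1215785, was above background on 1 array only, stable flow replicate 2.

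Traf6, the ubiquitin ligase recruited by Malt1, was bright on a single array. Probe ILMN_2960750 had an uncorrected signal of 992 on disturbed flow replicate 1, against 95.9 and 90.6 on disturbed flow replicates 2 and 3. On stable flow replicates 1, 2 and 3 the signal was 192, 84.3 and 129. Probe ILMN_2427560 repeated this, with 743, 86.1 and 86.2 on the disturbed flow arrays, against 135, 78.3 and 105 on the stable flow arrays. Both probes are listed for the same transcript record, and both put disturbed flow replicate 1 far above the other 5 arrays. On the log2 scale their differences were 1.55 (SE 1.09) and 1.71 (SE 1.04), each with a 95% interval that includes 0 and a limma adjusted p of 0.890. Without disturbed flow replicate 1 they were 0.20 and 0.36. The second of these probes had groups that did not overlap, by a margin of 4.89 on the lowest disturbed flow array over 4.85 on the highest stable flow array.

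Other Traf6 probes were not far above the rest on that array. ILMN_1259162, of the same transcript record, had 4.96, 4.40 and 4.82 on the disturbed flow arrays and 4.64, 6.08 and 4.59 on the stable flow arrays, a difference of -0.38 (SE 0.49) that was 0.12 without stable flow replicate 2. Its uncorrected signal was 97.2 on stable flow replicate 2, below the 104 on disturbed flow replicate 1 and the 124 on stable flow replicate 1. Its lowest detection p, 0.00107, was on disturbed flow replicate 1. ILMN_1246274, of a different record, was above background on disturbed flow replicate 2 alone, where its log2 intensity was 6.58. ILMN_1239417 was above background on 0 of 6 arrays. The 4 Traf6 probes that were above background anywhere thus had their highest normalized values on 3 different arrays.

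Ikbkb encodes IKK-beta, the kinase that phosphorylates IkappaB proteins. Its brightest probe, ILMN_1235547, had log2 intensities of 4.91, 5.00 and 5.06 on the disturbed flow arrays, against 4.84, 4.44 and 5.44 on the stable flow arrays. The stable flow values lay on both sides of the disturbed flow values, and the difference was 0.09 (SE 0.37, 95% interval -0.78 to 0.95, limma adjusted p = 0.964). Probe ILMN_2589556 had the detection pattern of the Malt1 probe, above background on 3 disturbed flow arrays and 0 stable flow arrays. Its log2 intensities were 4.62, 4.66 and 5.73 on the disturbed flow arrays, against 4.46, 4.28 and 4.20 on the stable flow arrays, with detection p-values of 0.0214, 0.0385 and 0.00214, against 0.0962, 0.716 and 0.917. The disturbed flow values were close to the detection limit, and no lower bound above 1-fold could be set. The difference of 0.69 (SE 0.40, limma adjusted p = 0.890) fell to 0.35 without disturbed flow replicate 3. A probe that passes the filter through 1 group alone had to differ, so this value gives no support beyond its detection pattern. The third Ikbkb probe, ILMN_1238472, was above background on no array.

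**Figure D2:**
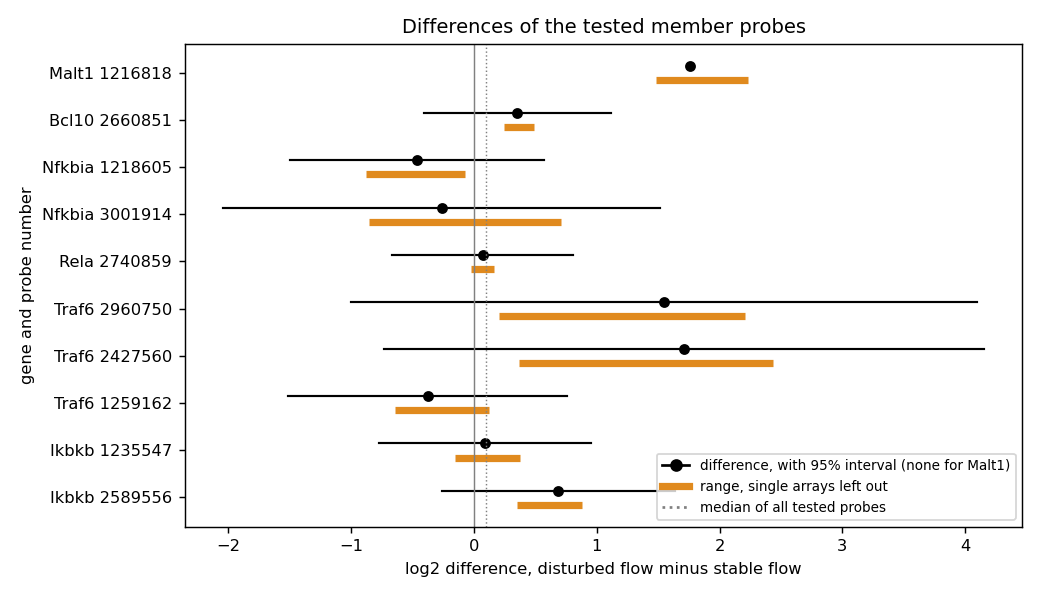
Log2 difference, disturbed flow minus stable flow (horizontal axis), of the 10 tested probes of 6 NF-kappaB genes (vertical axis). Black points are differences, with 95% intervals except for Malt1, orange bars span the values with single arrays left out, and the dotted line is the median of all tested probes, 0.098. All 9 intervals drawn cross 0, and both Traf6 probes with large differences come down to 0.20 and 0.36.

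Of the Rel proteins, only Rela was measured well. Rela encodes the p65 subunit that carries the transactivation domain of the classical dimer, and its probe was above background on 6 of 6 arrays. Log2 intensities were 6.77, 7.14 and 6.94 on the disturbed flow arrays, against 6.74, 7.05 and 6.85 on the stable flow arrays. The 2 groups covered nearly the same range, and the difference was 0.07 (SE 0.32, 95% interval -0.67 to 0.81, limma adjusted p = 0.966). Scaling to a common 75th percentile gave 0.49, while omitting disturbed flow replicate 2 turned the sign (-0.02), as did omitting stable flow replicate 1 (-0.0015). Relb, the partner of p52 in the alternative pathway, was above background on 0 of 6 arrays, with its nearest approach a detection p of 0.0534 on disturbed flow replicate 1. Nfkb2, which encodes the p100 precursor of p52, was above background on disturbed flow replicate 1 alone. Its log2 intensities were 4.61, 4.61 and 4.52 on the disturbed flow arrays, against 4.31, 4.44 and 4.34 on the stable flow arrays. These groups did not overlap, but 5 of the 6 values were below the detection limit and the probe was not tested.

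The inhibitors differed in how well they were seen. Nfkbia encodes IkappaB-alpha, which binds Rel dimers and is itself a direct NF-kappaB target. Probe ILMN_1218605 was above background on 6 of 6 arrays, with log2 intensities of 7.01, 6.77 and 6.67 on the disturbed flow arrays, against 6.58, 8.06 and 7.20 on the stable flow arrays. The disturbed flow values lay within the wider range of the stable flow values. On stable flow replicate 2 the uncorrected signal of this probe was 109, the lowest of the 6, while its normalized value there was the highest. The difference was -0.46 (SE 0.44, 95% interval -1.50 to 0.57, limma adjusted p = 0.890). It was -0.08 without stable flow replicate 2 and -0.88 without stable flow replicate 1, and scaling to a common 75th percentile turned it to 0.14. A second Nfkbia probe, ILMN_3001914, had 4.95, 5.69 and 5.09 on the disturbed flow arrays, against 4.41, 7.33 and 4.80 on the stable flow arrays. Its difference of -0.26 (SE 0.76) became 0.71 without stable flow replicate 2. On that array the second probe had an uncorrected signal of 102, close to the 110 on stable flow replicates 1 and 3, while its normalized value there was the highest of the 6.

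Tnfaip3 encodes A20, a ubiquitin-editing enzyme that shuts down NF-kappaB signalling and is a protein that Malt1 cleaves. Its probe was above background on disturbed flow replicate 1 alone, with log2 intensities of 5.42, 4.38 and 4.67 on the disturbed flow arrays, against 4.46, 4.40 and 4.58 on the stable flow arrays. The remaining 2 disturbed flow values spanned the stable flow ones, and the probe was not tested. Disturbed flow replicate 1 was thus the array on which Tnfaip3, Nfkb2 and the bright Traf6 probes were highest or among the highest. It was also the disturbed flow array with the most probes above background over the whole array, 34.7%.

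Nfkbia, Tnfaip3 and Nfkb2 are known NF-kappaB targets, and their promoters are shown because Nfkbia was above background on all 6 arrays and the other two on 1 array each. The NF-kappaB (kappaB) consensus, a run of G, a purine, any base, A or T, pyrimidines and CC, was searched on both strands in RefSeq promoter windows of GRCm38.p6, from 250 bases before to 50 after each gene start. Capitals mark its matches, which may overlap, and each stretch runs 5′ to 3′ on the gene's strand and ends at the last base before the gene start. The motif was chosen after matches had been looked at.
Nfkbia, chr12:55492648-55492696, minus strand: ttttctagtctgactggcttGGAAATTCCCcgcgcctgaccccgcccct
Tnfaip3, chr10:19015411-19015555, minus strand: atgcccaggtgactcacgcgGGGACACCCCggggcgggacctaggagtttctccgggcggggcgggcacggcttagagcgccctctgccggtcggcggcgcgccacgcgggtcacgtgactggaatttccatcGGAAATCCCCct
Nfkb2, chr19:46304678-46304736, plus strand: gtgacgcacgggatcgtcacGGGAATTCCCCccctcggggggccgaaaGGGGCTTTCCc

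Counted from the gene start, with -1 the base before it, the Nfkbia match lies at -29 to -20 and the nearer Tnfaip3 match at -12 to -3. Nfkb2 has further gene starts whose windows also held matches, and only its stretch with the most matches is shown. Bcl10 also held a match, at -241 to -232, and Rela and Traf6 held none. Windows were found for 6 of the 10 genes, and 4 of these 6 had a match in at least 1 window, while 5.14% of all 27025 genes with a window did. Such a match is a description of the letters in the window.

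Over all probes of the array the test called nothing. At a limma adjusted p under 0.05, 0 of 12546 tested probes were called (0%), and so were 0 of the 10 NF-kappaB probes. Unadjusted, 338 probes (2.69%) had a p under 0.05. Groups did not overlap, with disturbed flow higher, for 3 of the 10 NF-kappaB probes, namely the first Malt1 probe, Traf6 ILMN_2427560 and Ikbkb ILMN_2589556. Over all tested probes this held for 5.68%, and the reverse, with disturbed flow lower, for 4.00% and for 0 of the 10. The Malt1 probe was picked for this contrast and the Ikbkb probe passed the filter through 1 group, so nothing is read from the count of 3. Taking the brightest tested probe of each gene, 5 of 6 differences were above 0, with a median of 0.22, beside a median of 0.11 and 57.8% above 0 over all 6980 tested genes. Malt1 is 1 of these 6 and its sign was fixed by the choice. Without it, 4 of 5 differences were above 0, with a median of 0.089. The largest detection p below the threshold was 0.0470, for Nfkbia ILMN_3001914 on stable flow replicate 3, and the smallest above it was 0.0534, for Relb on disturbed flow replicate 1.

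The wider pathway was followed through lists of genes by role, and 0 members of any list were called. CARD scaffolds and adaptors around Bcl10 and Malt1 had 6 tested genes of 11 with a probe, all with differences above 0 and a median of 0.47. Casp8, a protease that also takes part in Malt1 complexes, had the largest difference, 6.49 ± 1.55 on the disturbed flow arrays and 5.03 ± 0.50 on the stable flow arrays (SD, n = 3 each), a difference of 1.46 (SE 0.76, limma adjusted p = 0.890) that was 0.54 without disturbed flow replicate 1. Card10, the endothelial scaffold, differed by 0.97 (SE 0.80), and by 0.052 once disturbed flow replicate 2 was left out. Cflar, a Casp8 partner, stood at 0.50 and turned to -0.20 without that array, and the kinase gene Prkca stood at 0.45. Card9 was above background on 0 arrays. Scaling to a common 75th percentile left 4 of the 6 above 0.

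Genes whose proteins Malt1 cleaves had a median of 0.44, with 4 of 6 tested genes above 0. The mRNA-binding Roquin genes Rc3h2 and Rc3h1 differed by 1.48 (SE 0.94) and 0.52 (SE 0.45), and Zc3h12a, the Regnase-1 ribonuclease gene, by 0.78 (SE 0.55). Rc3h1 gave 0.13 without disturbed flow replicate 2. Without stable flow replicate 2, Rc3h2 gave 0.51 and Zc3h12a 0.25, and the median of the list was 0.24. The IKK complex and its upstream kinases had a median of 0.21 with 6 of 7 above 0, and -0.13 with 2 of 7 without stable flow replicate 2. Its largest difference was that of Tab3, a ubiquitin-binding partner of the kinase TAK1, at 1.28 (SE 0.82), or 0.24 when disturbed flow replicate 1 was omitted. Map3k7, the TAK1 gene itself, stood at 0.27 (SE 0.86), Tab2 at 0.24 (SE 0.32) and the IKK-related kinase gene Tbk1 at 0.21 (SE 0.47). Map3k7 turned to -0.66 without disturbed flow replicate 2, and Tbk1 to -0.25 without stable flow replicate 2. No probe is named Chuk or Ripk1.

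Among ubiquitin ligases besides Traf6, Xiap stood at 0.41 (SE 0.34), the linear ubiquitin subunit gene Sharpin at 0.30 (SE 0.51) and Birc2 at -0.21 (SE 0.82). Sharpin turned to -0.19 without disturbed flow replicate 1, and Birc2 ranged from -1.12 to 0.41 as single arrays were omitted. The list median of 0.35 over 4 genes was 0.0035 without disturbed flow replicate 1, the array of the bright Traf6 probes. Deubiquitinases and A20-binding proteins had a median of 0.0079 over 5 genes. Among them Tax1bp1, an A20 adaptor, stood at 0.81 (SE 0.50), the linear deubiquitinase gene Otulin at -0.39 (SE 0.37), and Cyld, a deubiquitinase and Malt1 substrate, at -0.15 (SE 0.42), or 0.21 when stable flow replicate 2 was omitted. Of the IkappaB family beyond Nfkbia, Nfkbiz was tested and stood at 0.94 (SE 0.56), and Nfkbib and Bcl3 were above background on 0 arrays. Rela was the 1 tested Rel gene.

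Receptors and their adaptors had a median of -0.19, with 5 of 11 above 0. The interleukin-1 receptor gene Il1r1 stood at 0.95 (SE 0.71), the TNF receptor gene Tnfrsf1b at 0.62 (SE 0.35), the kinase gene Irak1 at -0.55 (SE 0.39) and the endotoxin receptor gene Tlr4 at -0.53 (SE 0.57). Il1r1 gave 0.16 when disturbed flow replicate 3 was omitted, and 75th percentile scaling turned Tlr4 to 0.053. With a common 75th percentile the median was 0.09, and it was 0.08 without stable flow replicate 2. NF-kappaB target genes of endothelium, the readout of the pathway, had a median of -0.15 over 13 tested genes of 28, with 4 above 0 and 9 below. The mitochondrial superoxide dismutase gene Sod2 had 6.74 ± 0.27 on the disturbed flow arrays and 7.69 ± 1.08 on the stable flow arrays (SD, n = 3 each), a difference of -0.95 (SE 0.56, limma adjusted p = 0.890). Without stable flow replicate 2 the Sod2 difference was -0.35, and with 75th percentile scaling it was -0.31. Gadd45b, a stress-induced growth regulator, stood at 0.81 (SE 0.49), and the macrophage growth factor gene Csf1 at -0.80 (SE 1.16), turning to 0.54 without stable flow replicate 1. The chemokine gene Cxcl1 stood at -0.78 (SE 0.45), and at 0.025 with 75th percentile scaling. The direction of this list turned with the settings, for causes that were not tested. Scaling to a common 75th percentile gave a median of 0.31 with 11 of 13 above 0. Leaving out stable flow replicate 2 gave 0.13 with 7 of 13, and array weights gave 0.094 with 7 of 13. The target genes Ccl2, Cxcl10, Cx3cl1, Il6, Csf2, F3 and Junb were above background on 0 arrays.

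**Figure D3:**
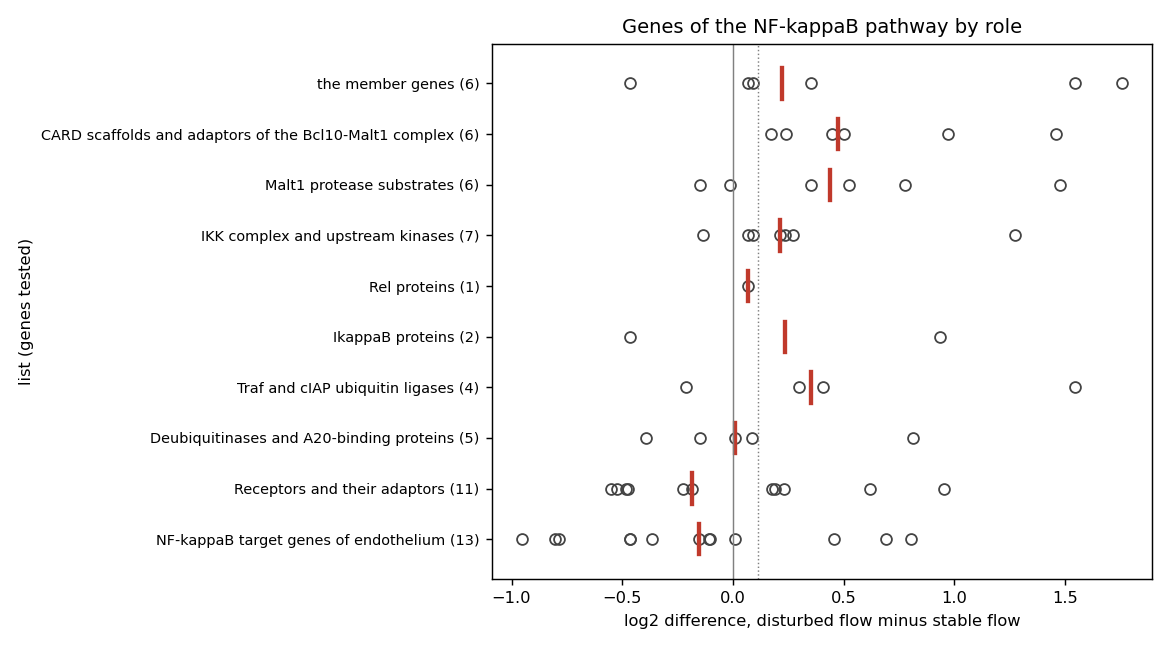
Log2 difference, disturbed flow minus stable flow (horizontal axis), of every tested gene in the lists of NF-kappaB pathway roles (vertical axis, with the number of tested genes), 1 open point per gene, with list medians as red bars and the median of all tested genes, 0.11, as a dotted line. Medians run from -0.19 for receptors to 0.47 for CARD scaffolds, and points lie on both sides of 0 in every list except CARD scaffolds and Rel proteins.

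The genes whose log2 intensity followed the Malt1 probe most closely over the 6 arrays were Mill2, Far1, Arhgef1, Ets1 and Nudt9, with Pearson correlations of 0.972, 0.963, 0.958, 0.955 and 0.949. They are the 5 highest among all tested probes with a gene symbol, 6 points each, and the arrays share their normalization and their slide within a group. In each of the 5 genes the groups did not overlap, which follows from choosing them by likeness to a probe picked for separating the groups. Nudt9 had 7.97, 8.81 and 5.65 on the disturbed flow arrays, against 5.59, 4.76 and 4.62 on the stable flow arrays. Ets1, a transcription factor gene of endothelium and lymphocytes, had 6.59, 7.96 and 5.82 on the disturbed flow arrays, against 5.13, 4.25 and 4.74 on the stable flow arrays. The order of the disturbed flow arrays, the same as for Malt1, comes with that choice too. Far1 varied far less, with 5.24 ± 0.06 and 4.99 ± 0.06 (SD, n = 3 each) on the disturbed and stable flow arrays. Among the NF-kappaB probes the correlation with Malt1 was 0.935 for Nfkb2, 0.539 for Bcl10, 0.510 for Traf6, 0.313 for Rela and -0.398 for Nfkbia on their brightest probes. The Nfkb2 values lay between 4.31 and 4.61, above background on disturbed flow replicate 1 alone. A correlation with a probe picked for separating the groups largely restates that contrast, so nothing is read from these values.

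**Figure D4:**
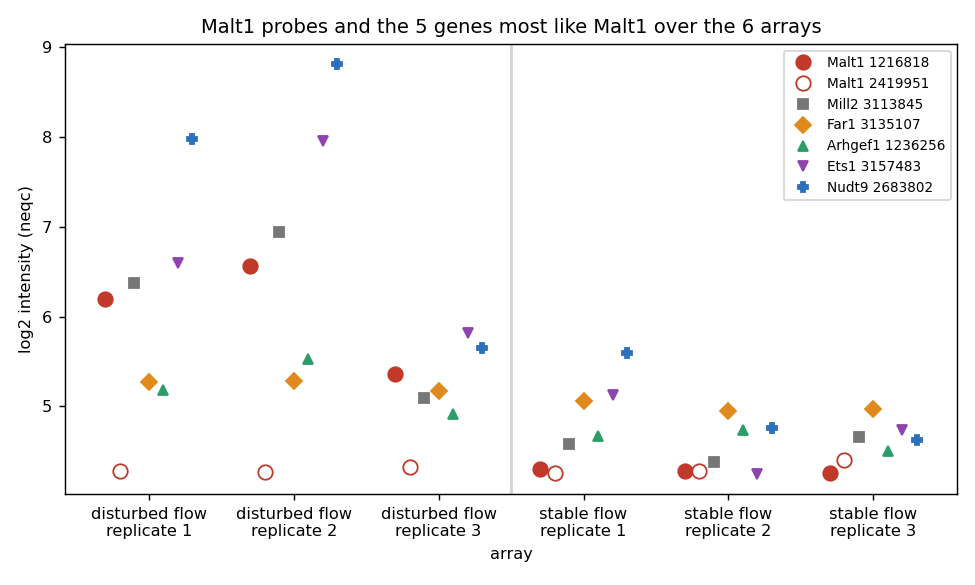
Log2 intensity after neqc (vertical axis) on each of the 6 arrays (horizontal axis, disturbed flow left of the line), for both Malt1 probes and the 5 genes with the highest correlation with the first of them. The second Malt1 probe, as open circles, stays between 4.26 and 4.40 on all arrays, while the other genes are highest on disturbed flow replicates 1 and 2.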

How the data were processed

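Per the file headers, the deposited table holds 1 value per probe and array beside a detection p-value. These deposited values were read as signal intensity without background subtraction, since none is below 0 and array medians differ. The series matrix gives further deposited intensity values, linear, whose making is not given in the sources used here. In their processing notes the submitters name GenomeStudio 2011.1. The neqc function of limma 3.58.1, under R 4.3.3 and with an offset of 16, did background correction, quantile normalization and the log2 step. Tests (lmFit, eBayes; two-sided) covered 12546 probes that 3 or more of 6 arrays put under a detection p of 0.05, and Benjamini-Hochberg adjustment ran over all of them. A detection p of 0 is the smallest the file gives. Probes were named by platform annotation with symbols brought up to date: 34885 probes had 1 symbol, 18 several and 10378 none here. The number of arrays limits precision, with a median SE of 0.45. The fit was tested on simulated data.

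The genes and lists were chosen with earlier results of these data known. The rule for named genes takes every probe of the 10 genes, the brightest tested probe standing for its gene, up to 4 genes with the largest difference per list, and the 5 genes with the highest correlation with Malt1. Endothelial, smooth muscle, fibroblast, macrophage, neutrophil and lymphocyte markers were counted. Same-numbered samples of the groups did not deviate together (correlations of -0.035, -0.074 and -0.085), so the numbers were not used as pairs. In another matching, disturbed flow replicates 1, 2 and 3 gave 0.092, 0.102 and 0.114 with stable flow replicates 3, 1 and 2. Whether samples were paired in some other order is thus not settled.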

Additional observations from a re-analysis of the deposited data

How the results depend on the processing

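Limma called 0 probes and 0 NF-kappaB probes under all 14 alternatives, and unadjusted p-values under 0.05 numbered 92 (75th percentile scaling) to 2097 (all 45281 probes, unfiltered). The median over the NF-kappaB genes, 0.22, includes Malt1, whose sign was fixed by the choice, and was 0.089 without Malt1. With Malt1 it ranged from 0.17 to 0.43 with single arrays left out, and was 0.086 without background correction. It was 0.089 at a detection p under 0.01, where Malt1 was no longer tested, 0.15 with array weights and 0.41 with 75th percentile scaling. The matrix columns as named turned this median to -0.27 and the differences of Malt1 to -1.63, Bcl10 to -0.47, Nfkbia to 0.51 and 0.58, Rela to -0.083, Traf6 to -1.54, -1.62 and 0.57, and Ikbkb ILMN_2589556 to -0.42, because they follow arrays of the other described group, while Ikbkb ILMN_1235547 kept its sign at 0.19. Matched to arrays by rank order, an alternative chosen after seeing the data, they turned only Ikbkb ILMN_1235547, to -0.19. The following reversals have causes that were not tested. Scaling to a common 75th percentile gave 0.14 and 0.50 for Nfkbia, 0.054 for Traf6 ILMN_1259162 and -0.047 for Ikbkb ILMN_1235547. Array weights gave 0.42 for Nfkbia ILMN_3001914 and -0.19 for Ikbkb ILMN_1235547. With single arrays left out, Rela ranged from -0.024 to 0.16, Nfkbia ILMN_3001914 from -0.85 to 0.71, Traf6 ILMN_1259162 from -0.64 to 0.12, and Ikbkb ILMN_1235547 from -0.16 to 0.37. Malt1 kept its sign apart from the matrix columns as named. That sign was fixed by the choice of the probe, so nothing is read from it. The Malt1 difference was 0.58 without background correction and 2.23 without disturbed flow replicate 3. With the replicate number as a block, 0 probes were called, 329 had an unadjusted p under 0.05, and every difference was as without it. The detection threshold of 0.01 for Malt1 was also added after seeing the data.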

Other observations

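Markers of other vessel wall and blood cells, not described above, were counted in the same way. Of 7 macrophage and monocyte markers with a probe, 4, 2 and 1 were above background on disturbed flow replicates 1, 2 and 3, and 1, 0 and 1 on stable flow replicates 1, 2 and 3. Their summed linear intensity was 398, 156 and 324 on the disturbed flow arrays, against 157, 161 and 181 on the stable flow arrays, so 2 disturbed flow arrays were above every stable flow array. Summed intensities include markers not above background, so background level makes up part of each. Of 6 neutrophil markers, 4, 1 and 1 were above background on the disturbed flow arrays and 3, 1 and 1 on the stable flow arrays, with a summed linear intensity of 1095 on disturbed flow replicate 1, the array of the bright Traf6 probes, and 142 to 409 on the other 5. The smooth muscle markers counted 5, 4 and 3 of 8 on the disturbed flow arrays and 5, 2 and 2 on the stable flow arrays. Among them Acta2 was above background on every array, at log2 intensities from 7.75 to 8.48, while Tagln and Lmod1 were above background on none. The fibroblast markers counted 7, 5 and 4 of 8 on the disturbed flow arrays and 6, 2 and 5 on the stable flow arrays. The part of these cells in the Traf6 and Tnfaip3 values was not tested.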
